A study of Mus musculus with 9 samples.

Results

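The genes described here are 10 genes that load histone H3 onto DNA or methylate it at lysine 9 (H3K9), measured by RNA-seq in cultured mouse prostate cancer cells. They are the H3 chaperone genes Asf1a, Asf1b, Chaf1a, Chaf1b and Hira and the H3K9 methyltransferase genes Suv39h1, Suv39h2, Ehmt1, Ehmt2 and Setdb1. They were taken by symbol from the 12842 genes of the deposited table, and all 10 were found and passed the filter on low values in every comparison. The question was how their transcripts stood when Nsd2, which encodes a methyltransferase for a different residue of H3, was silenced or when cells were given a compound labelled as an MCTP.

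The cells are NPK cells, a line the authors isolated from lung metastases of genetically engineered mice with prostate cancer, and every group shares that genotype. The control group held 3 libraries from NPK cells with no stated treatment, the shNsd2 group 3 libraries from cells with shRNA against Nsd2, and the MCTP group 3 libraries from treated cells. Silencing in the study used lentiviral pLKO.1 vectors, with a vector against luciferase as its control, but the labels name neither the Nsd2 shRNA of each library nor a vector in these control cells. The dose and duration of MCTP in these libraries were not given in the sources used here. The labels put MCTP39, MCTP40 and MCTP41 on 1 library each, and the libraries were compared as 1 group by the shared prefix. The study describes MCTP-39 alone, as a putative NSD2 inhibitor, and reports its use in human DU145 cells. It states that caveats, among them a possible lack of specificity, prevent a direct conclusion that the compound acted through NSD2. The titles of the shNsd2 libraries all name Nsd2, while a second label names Nsd2, Nsd3 and Nsd4 in turn. Nothing states that libraries of a group came from separate cultures, so the p-values measure the spread between libraries, which may be technical.

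Newly made H3 is carried with H4 by ASF1, which hands it to the CAF-1 complex for deposition behind replication forks or to the HIRA complex for deposition of the variant H3.3 outside replication. Methylation of H3K9 is placed by several SET-domain enzymes and is read by heterochromatin proteins, which compact chromatin and keep repeats and genes silent. Chaperones and enzymes meet in this work, since CAF-1 binds a heterochromatin protein and both H3 supply and H3K9 methylation must be renewed each time the genome is copied.

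Values are the deposited log2 values, scaled between libraries by the authors, and a difference of 1 is a change of 2-fold if no other transform was applied. If variance was stabilized, which is not known for this table, this does not hold at low values. The ratios given below assume plain log2 values. They ranged from 1.63 to 18.47. With no counts in the table, sequencing depth is unknown, and precision was judged from the replicates alone. Differences were tested with limma across all genes, and a gene is called higher or lower when its Benjamini-Hochberg adjusted p is under 0.05. A gene that is not called may still have changed by less than 3 libraries a group can show. As these are bulk libraries, fewer cells of a kind and less RNA per cell cannot be told apart.

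In each group 1 library is described here as standing apart, as its deviation from the group mean had the lowest correlation with GC content. Its values also correlated less with each of the other libraries than those did with each other. Of any 3 libraries 1 must do so, and this alone singles out no library. The Pearson r of control replicate 1 with replicates 2 and 3 was 0.99918 and 0.99894, against 0.99975 between those. That of shNsd2 replicate 3 with replicates 1 and 2 was 0.99938 and 0.99943, against 0.99981, and that of MCTP replicate 2 with replicates 1 and 3 was 0.99791 and 0.99638, against 0.99945. The deviation of these libraries from the group mean followed the GC content of transcripts across genes, with an r of -0.61 for control replicate 1, -0.66 for shNsd2 replicate 3 and -0.72 for MCTP replicate 2. The other 6 libraries had r between 0.37 and 0.69, but deviations within a group sum to 0, so some opposite signs are fixed beforehand and the signs alone single out no library. The SD of the deviation was 0.136 for MCTP replicate 2, against 0.0394 to 0.103 among all others. Fold changes followed GC content as well, with r across genes of 0.218 for shNsd2 against control over 11930 genes, 0.415 for MCTP against control and -0.223 for shNsd2 against MCTP over 11940 genes. Results are therefore also given after each library was corrected for GC content, and without these 3 libraries. The second choice was made after seeing the data. It leaves out the library that deviated most in each group, which lowers the spread within groups, so calls gained under it may follow from the choice.

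Nsd2, listed under its older symbol Whsc1 on chromosome 5, checked the labels. Its values were 12.48, 12.43 and 12.42 in control, 11.56, 11.61 and 11.68 in shNsd2, and 12.15, 12.21 and 12.07 in MCTP libraries. All shNsd2 libraries lay below all others, including those whose second label names another gene, and the MCTP libraries lay between the groups. The log2 fold change was -0.83 (SE 0.041, limma adjusted p = 2.26e-06, a ratio of 0.563) for shNsd2 and -0.30 (SE 0.054, adjusted p = 0.00562) for MCTP, both against control. The MCTP value was -0.183 after a correction for transcript length and -0.19 after correction for the mean GC content of all transcripts, choices made after seeing the data. Both groups were called lower in all 16 alternatives.

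Markers were compared with the cell label. Of the luminal epithelial markers, Krt8 and Krt18 averaged 16.28 and 15.38 in control libraries and Cdh1 11.77. Epcam, at 3.55, lay below the filter value of 3.78, and Pbsn was not listed in the table. Vim, a mesenchymal marker, averaged 17.21, so the cells carried both epithelial and mesenchymal transcripts.

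On a scale divided by transcript length, the members differed widely in level. Ehmt2 was highest at 10.67 ± 0.052 (SD, n = 3 control libraries; log2 value minus log2 of the length in kb), followed by Chaf1b at 9.92 ± 0.052, Asf1b at 9.81 ± 0.074 and Suv39h1 at 9.74 ± 0.016. Hira stood at 9.28, Setdb1 at 8.90, Chaf1a at 8.78 and Ehmt1 at 8.53. Asf1a at 7.58 ± 0.144 and Suv39h2 at 6.08 ± 0.099 were lowest. Within control libraries, Asf1b exceeded Suv39h1 by 0.07 ± 0.058, from 0.00 to 0.12, so this pair barely differed, and Setdb1 exceeded Chaf1a by 0.12 ± 0.075. Every other neighbouring pair in this order differed by at least 0.09 in every control library. In the 3 paralog pairs the more abundant transcript per length was Asf1b, Suv39h1 and Ehmt2, and of the CAF-1 subunits it was Chaf1b. The order assumes that the deposited values were not already divided by length. The variance-stabilized counts that the study's methods describe for its tumour cells would meet this, but no source used here ties them to this table. Without division by length, the deposited values averaged 12.68 in control libraries for Ehmt2, 11.38 for Suv39h1, 11.36 for Hira, 11.25 for Chaf1a, 11.12 for Setdb1, 11.11 for Ehmt1, 10.86 for Chaf1b, 10.64 for Asf1b, 8.72 for Asf1a and 8.19 for Suv39h2. Chaf1a then lies above Chaf1b, and the order within the paralog pairs is the same.

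**Figure D1:**
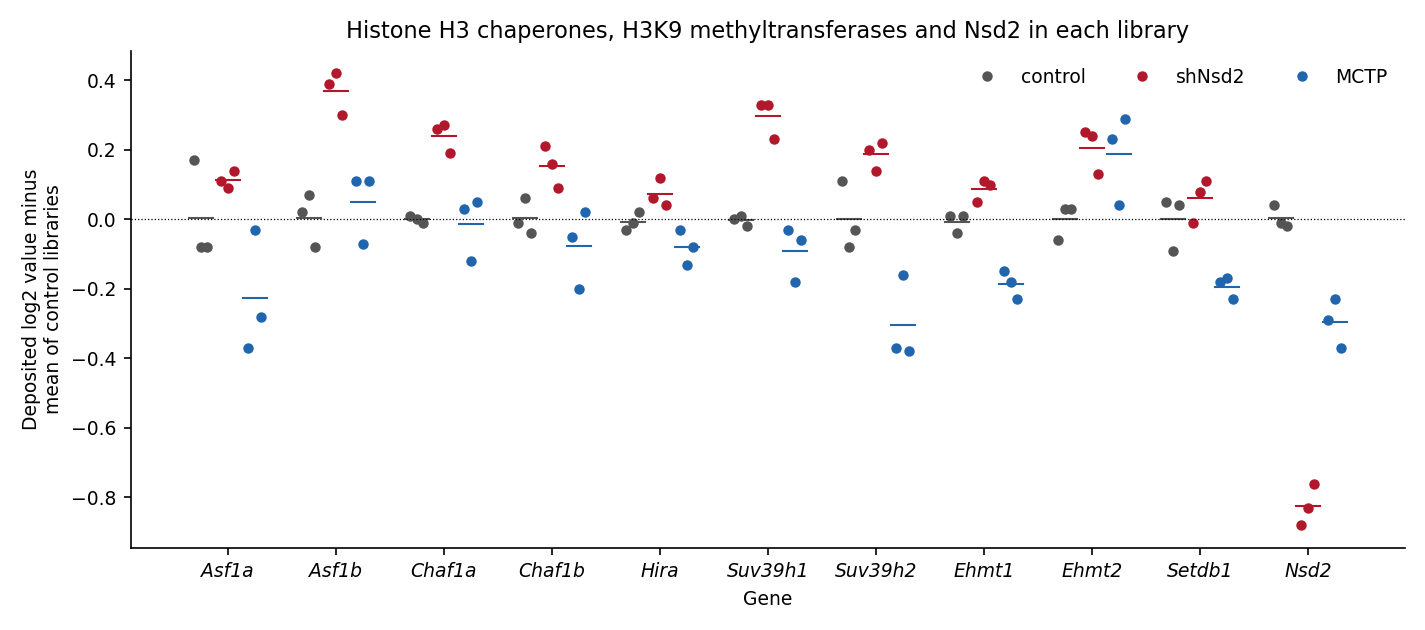
Deposited log2 value of each library minus the mean of the control libraries (vertical axis) for the 10 genes and Nsd2 (horizontal axis). Points are single libraries and short lines are group means. The shNsd2 points lie above the control points for 8 of the 10 genes, and those of Nsd2 lie about 0.83 below.

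With Nsd2 silenced, the transcripts called higher were those of 3 chaperone genes, Asf1b, Chaf1a and Chaf1b, and of 3 methyltransferase genes, Suv39h1, Suv39h2 and Ehmt2. In shNsd2 against control, 6 of the 10 members were called higher, where 23.1% of 12205 genes tested were, and 0 were called lower, where 24.8% were. At an unadjusted limma p under 0.05 the counts were 7 and 0. The groups did not overlap for 8 of 10 members, all higher in shNsd2, beside 57.2% of all genes that did not overlap in either direction. The median log2 fold change was 0.168 over the members and 0.00199 over all genes tested.

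Asf1b (chromosome 8, 83955507 to 83970197, plus strand, GRCm38) encodes the ASF1 paralog tied to dividing cells and rose the most. Its values were 10.66, 10.71 and 10.56 in control and 11.03, 11.06 and 10.94 in shNsd2 libraries. Every shNsd2 library exceeded every control library. With a log2 fold change of 0.37 (SE 0.049, 95% CI 0.26 to 0.48, adjusted p = 0.00038), a ratio of 1.29, it ranked 285 from the top of 12205 genes. Asf1a (chromosome 10, 53596757 to 53609225, plus strand) encodes the paralog that also serves HIRA. It stood at 8.89, 8.64 and 8.64 in control and 8.83, 8.81 and 8.86 in shNsd2 libraries. Control replicate 1, a library that stood apart, lay above all shNsd2 libraries and the other control libraries lay below them. The log2 fold change of Asf1a was 0.11 (SE 0.068, adjusted p = 0.203). It passed the threshold after GC correction, at 0.13 (adjusted p = 0.0196), and without control replicate 1, at 0.195 (adjusted p = 0.00449). Without control replicate 2 it was 0.0679 and without control replicate 3 it was 0.0725, and over all alternatives its adjusted p ran from 0.00128 to 0.496.

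Chaf1a (chromosome 17, 56040439 to 56072289, plus strand) encodes the large subunit of CAF-1, which contacts the replication clamp. Its values were 11.26, 11.25 and 11.24 in control and 11.51, 11.52 and 11.44 in shNsd2 libraries. The groups were apart and the control libraries lay close together (SD 0.0135, n = 3). The log2 fold change was 0.24 (SE 0.035, 95% CI 0.16 to 0.32, adjusted p = 0.000635). Chaf1b (chromosome 16, 93883901 to 93906115, plus strand), for the middle subunit of the same complex, had values of 10.85, 10.92 and 10.82 in control and 11.07, 11.02 and 10.95 in shNsd2 libraries. These groups were also apart, but narrowly, with shNsd2 replicate 3 just above control replicate 2. Chaf1b thus rose by 0.15 on the log2 scale (SE 0.044, adjusted p = 0.0216). Hira (chromosome 16, 18877037 to 18970309, plus strand), which encodes the scaffold of the H3.3 deposition complex, averaged 11.36 in control and 11.43 in shNsd2 libraries without overlap, a log2 fold change of 0.08 (adjusted p = 0.101) that ran from 0.045 to 0.101 over the alternatives and was called in 1 of the 16, without the library of each group that stood apart.

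Suv39h1 (chromosome X, 8061171 to 8074760, minus strand) encodes an enzyme that trimethylates H3K9 in heterochromatin around centromeres. Its values were 11.38, 11.39 and 11.36 in control and 11.71, 11.71 and 11.61 in shNsd2 libraries. All shNsd2 libraries were higher. The log2 fold change was 0.30 (SE 0.038, 95% CI 0.21 to 0.38, adjusted p = 0.000323), a ratio of 1.23. Suv39h2 (chromosome 2, 3455815 to 3475031, minus strand), its paralog, stood at 8.30, 8.11 and 8.16 in control and 8.39, 8.33 and 8.41 in shNsd2 libraries. The groups were narrowly apart, again with control replicate 1 nearest to the shNsd2 libraries. Suv39h2 rose by 0.19 on the log2 scale (SE 0.056, adjusted p = 0.0229).

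Ehmt1 and Ehmt2 encode the partners of a heterodimer that mono- and dimethylates H3K9 in euchromatin. Ehmt2 (chromosome 17, 34898469 to 34914052, plus strand) had values of 12.62, 12.71 and 12.71 in control and 12.93, 12.92 and 12.81 in shNsd2 libraries. The shNsd2 libraries were higher without overlap. This was a log2 fold change of 0.21 (SE 0.045, 95% CI 0.10 to 0.31, adjusted p = 0.00536). At 60.8%, its transcript has the highest GC content of the list, and the value was 0.13 (adjusted p = 0.00227) after GC correction, with adjusted p from 1.19e-06 to 0.0386 over all alternatives. Ehmt1 (chromosome 2, 24789928 to 24919614, minus strand) averaged 11.11 in control and 11.20 in shNsd2 libraries, a log2 fold change of 0.09 (adjusted p = 0.0561) without overlap. It passed the threshold after GC correction (0.08, adjusted p = 0.0323), with median centring (0.113) and without control replicate 1 (0.0982), and its adjusted p ran from 0.0156 to 0.198 over all alternatives. Setdb1 (chromosome 3, 95323525 to 95357202, minus strand), whose enzyme silences retroelements, had a log2 fold change of 0.06 (adjusted p = 0.368), overlapping groups and a range from 0.0116 to 0.0905 over the alternatives.

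The calls of Asf1b, Chaf1a, Suv39h1 and Ehmt2 held in all 16 alternatives. Chaf1b lost its call without control replicate 3 (log2 fold change 0.126), without shNsd2 replicate 1 (0.120) or without shNsd2 replicate 2 (0.144), and Suv39h2 without control replicate 2 (0.148) or 3 (0.170) or without shNsd2 replicate 1 (0.181) or 3 (0.169). With all 9 libraries in one fit, both lost it. After GC correction 8 of 10 members were called higher, beside 28% of all genes, and without the library of each group that stood apart 9 of 10 were, beside 30% of all genes. Under the latter choice, which lowers the spread beforehand, calls over all genes rose from 5836 to 7402.

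**Figure D2:**
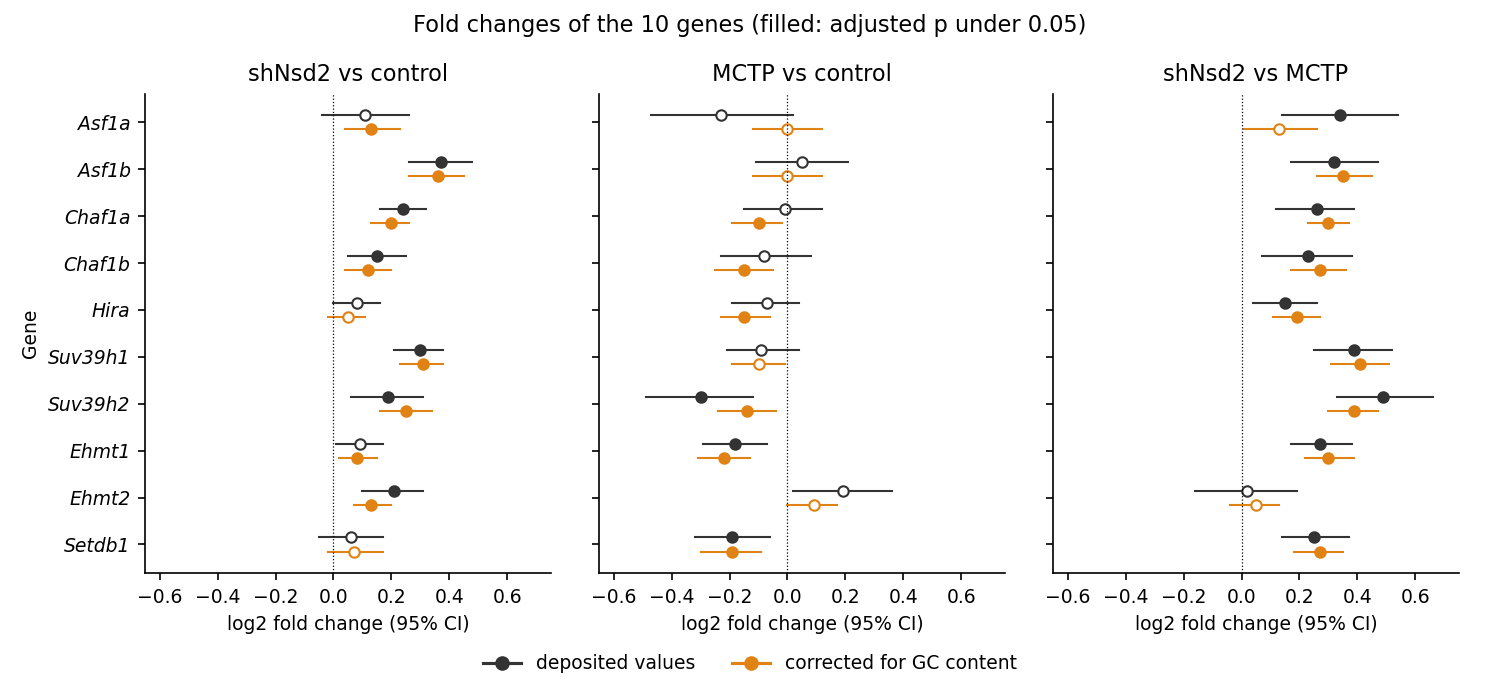
Log2 fold change (horizontal axis) of each of the 10 genes (vertical axis) in 3 comparisons, on deposited values and after correction for GC content. Bars are 95% confidence intervals and filled points have an adjusted p under 0.05. Of the 10 genes, 6 are filled for shNsd2 against control on deposited values, 3 for MCTP against control and 9 for shNsd2 against MCTP.

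MCTP libraries had lower transcripts of 3 methyltransferase genes, and none of the 5 chaperone genes passed the threshold. In MCTP against control, which shares its control libraries with the comparison above, 3 of 10 members were called lower, where 17.2% of 12216 genes tested were, and 0 were called higher, where 18% were. At an unadjusted limma p under 0.05 the counts were 3 and 1. The groups did not overlap for 6 members, 5 lower and 1 higher, beside 50.6% of all genes in either direction. The median log2 fold change was -0.0827 over the members and -0.00621 over all genes.

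On deposited values Suv39h2 was lowest relative to control, with values of 7.82, 8.03 and 7.81 in MCTP libraries against 8.30, 8.11 and 8.16 in control. MCTP replicate 2, a library that stood apart, lay closest to control but still below it. Suv39h2 had a log2 fold change of -0.30 (SE 0.081, 95% CI -0.49 to -0.12, adjusted p = 0.0244), a ratio of 0.81. Its transcript has a low GC content of 43%, and the log2 fold change was -0.14 (adjusted p = 0.027) after GC correction. With the GC content averaged over all its transcripts, an alternative added after seeing the data, the call was lost (-0.104, adjusted p = 0.0867). Its adjusted p ran from 3.56e-05 to 0.102 over all alternatives. After GC correction Ehmt1 (-0.219), Setdb1 (-0.193), Chaf1b (-0.15) and Hira (-0.148) lay further below control than Suv39h2 (-0.138).

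Ehmt1 values were 10.96, 10.93 and 10.88 in MCTP libraries against 11.12, 11.07 and 11.12 in control. Setdb1 values were 10.94, 10.95 and 10.89 in MCTP libraries against 11.17, 11.03 and 11.16 in control. Both genes were lower in every MCTP library than in any control library. The log2 fold change was -0.18 (SE 0.048, adjusted p = 0.0227) for Ehmt1 and -0.19 (SE 0.056, adjusted p = 0.0322) for Setdb1, and -0.22 and -0.19 after GC correction. Over all alternatives the adjusted p ran from 0.00289 to 0.144 for Ehmt1 and from 0.00428 to 0.118 for Setdb1, and length correction ended both calls, at -0.0956 for Ehmt1 and -0.144 for Setdb1. Quantile normalization ended the call of Setdb1 (-0.162, adjusted p = 0.0574) and not that of Ehmt1 (-0.156, adjusted p = 0.0362). Ehmt2, the dimer partner of Ehmt1, had values of 12.91, 12.72 and 12.97 in MCTP libraries against 12.62, 12.71 and 12.71 in control. The groups were apart in the other direction, but MCTP replicate 2 was barely above the higher control libraries. Its log2 fold change of 0.19 missed the threshold (SE 0.073, adjusted p = 0.0787), and was 0.262 (adjusted p = 0.00137) without MCTP replicate 2. It was 0.213 and called with quantile normalization, was also called with all 9 libraries in one fit, and was 0.09 and not called after GC correction, with adjusted p from 0.000137 to 0.225 over all alternatives.

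The remaining 6 members were not called. Asf1a had a log2 fold change of -0.23 (95% CI -0.47 to 0.02, adjusted p = 0.121). Its transcript has the lowest GC content of the list, 38.6%, and its log2 fold change was 0.00195 after GC correction, while without MCTP replicate 2 it was -0.328 and called (adjusted p = 0.00585, in a range from 0.000888 to 0.979). Without control replicate 1 it was -0.147. Asf1b was at 10.75, 10.57 and 10.75 in MCTP libraries, a log2 fold change of 0.05 (95% CI -0.11 to 0.21) that ran from -0.00225 to 0.117 over the alternatives. Chaf1a and Chaf1b stood at -0.01 (95% CI -0.15 to 0.12) and -0.08 (95% CI -0.23 to 0.08), and the sign of Chaf1a turned with quantile normalization (0.0103), with median centring (0.0319), with length correction (0.0608) and without MCTP replicate 2 (0.0401). Chaf1b was at -0.0158 without MCTP replicate 2, at -0.0317 with median centring and at -0.125 without MCTP replicate 3. Hira stood at -0.07 and Suv39h1 at -0.09, both with every MCTP library below every control library. For Hira the gap was narrow, as MCTP replicate 1 and control replicate 1 were both at 11.33 after rounding. With median centring Hira was at -0.0283 and Suv39h1 at -0.0414. Without MCTP replicate 2 Suv39h1 was at -0.0443. After GC correction Chaf1a, Chaf1b and Hira passed the threshold as lower, at -0.10, -0.15 and -0.15, which made 6 of 10 members called lower beside 23.7% of all genes.

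The calls on MCTP depended on single libraries. The number of members called lower was 0 without MCTP replicate 1, without MCTP replicate 3, without control replicate 1 or without control replicate 3, was 2 without control replicate 2, and was 4 without MCTP replicate 2. Suv39h2 lost its call without MCTP replicate 1 (-0.273), MCTP replicate 3 (-0.264), control replicate 1 (-0.249) or control replicate 3 (-0.321). Ehmt1 lost it without MCTP replicate 1 (-0.199), MCTP replicate 3 (-0.163) or control replicate 1 (-0.174), 2 (-0.198) or 3 (-0.174). Setdb1 lost it without MCTP replicate 1 (-0.201), MCTP replicate 3 (-0.175) or control replicate 1 (-0.168) or 3 (-0.174). Each of these fits had 1 library fewer. Over all genes tested, 4305 were called, but 2029 without MCTP replicate 1, 2830 without MCTP replicate 3, 2363, 2157 and 2451 without control replicate 1, 2 and 3, and 7372 without MCTP replicate 2. Without the library of each group that stood apart, 4 members were called lower and 1 higher, beside 31.7% and 30.3% of all genes. Centring each library on its median left 1 member called lower, Suv39h2, as did length correction, and moved the calls over all genes from 2198 higher and 2107 lower to 2807 higher and 1550 lower.

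The direct comparison of the perturbed groups uses no control library. In shNsd2 against MCTP, 9 of 10 members were called higher in shNsd2, where 20.6% of 12217 genes tested were, and 0 were called lower, where 22.6% were. The count of members lower at an unadjusted limma p under 0.05 was 0 as well. The groups were apart for 9 members, beside 55% of all genes. The median log2 fold change was 0.264 over the members and 0.00716 over all genes. On deposited values Suv39h2 differed most at 0.49 (SE 0.07, 95% CI 0.33 to 0.66, adjusted p = 0.00159), a ratio of 1.41. Suv39h1 differed by 0.39 (SE 0.056, adjusted p = 0.00173), Asf1a by 0.34 (SE 0.087, adjusted p = 0.0167) and Asf1b by 0.32 (SE 0.065, adjusted p = 0.00687). The other called members, Chaf1a, Chaf1b, Hira, Ehmt1 and Setdb1, differed by 0.15 to 0.27. After GC correction Suv39h1 differed most, at 0.409 against 0.388 for Suv39h2. With GC content averaged over transcripts these 2 genes were at 0.403 and 0.335. Ehmt2 was the exception, with a log2 fold change of 0.02 (95% CI -0.16 to 0.19, adjusted p = 0.867) and overlapping groups. The sign of Ehmt2 turned without MCTP replicate 2 (-0.0566), without shNsd2 replicate 1 (-0.00585), with quantile normalization (-0.00148) and with median centring (-0.00559).

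The calls of 4 of these members depended on the libraries or the scaling used. After GC correction 8 members were called higher, beside 28.5% of all genes, and Asf1a lost its call, at 0.13 (adjusted p = 0.0674, in a range from 2.58e-05 to 0.0674). Asf1a also lost it without MCTP replicate 1 (0.271) or without shNsd2 replicate 1 (0.342) or 3 (0.330). Chaf1a lost it without shNsd2 replicate 1 (0.248) or 2 (0.239). Chaf1b lost it without MCTP replicate 1 (0.242), without any 1 of the shNsd2 libraries (0.198, 0.222 and 0.259 for replicates 1 to 3), and with quantile normalization (0.195) or median centring (0.203). Hira lost it without MCTP replicate 1 (0.176) or 3 (0.155), without any 1 of the shNsd2 libraries (0.159, 0.130 and 0.170), and with quantile normalization or median centring (both 0.130). Without shNsd2 replicate 1, 5 members were called. Length correction ended the calls of Chaf1a (0.210) and Hira (0.133). Over all genes, 5276 were called, and 3361 without MCTP replicate 1, 3424 without shNsd2 replicate 2 and 3414 without shNsd2 replicate 3. Asf1b, Suv39h1, Suv39h2, Ehmt1 and Setdb1 were called in all 16 alternatives.

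Whether the members of a pair changed unequally was tested on the difference between their values within each library, for 3 paralog pairs and for the CAF-1 subunits Chaf1a and Chaf1b, which are not paralogs. Asf1b minus Asf1a was 1.77, 2.07 and 1.92 in control and 2.20, 2.25 and 2.09 in shNsd2 libraries, a difference of 0.26 with no overlap and of 0.22 after GC correction. With MCTP it differed from control by 0.28 with overlapping values (exact permutation p = 0.3), and by 0.00 after GC correction. Ehmt1 minus Ehmt2 was -1.50, -1.64 and -1.59 in control, -1.77, -1.70 and -1.60 in shNsd2 and -1.96, -1.79 and -2.09 in MCTP libraries. All MCTP values lay below all control values, by -0.37 on average and by -0.31 after GC correction, and the shNsd2 values lay above the MCTP values, by 0.26. For shNsd2 against control the values of this pair overlapped (-0.11, exact two-sided permutation p = 0.2, and -0.05 after GC correction). Chaf1a minus Chaf1b was higher without overlap in both perturbed groups than in control, by 0.09 with shNsd2 and 0.06 with MCTP, and by 0.08 and 0.05 after GC correction. With MCTP the change was 0.0332 without control replicate 2 and 0.181 with length correction. With shNsd2 it was 0.0628 without control replicate 2 and 0.135 with length correction. Each separation without overlap had an exact two-sided permutation p = 0.1, the smallest that 3 libraries against 3 can give. Suv39h1 minus Suv39h2 differed by 0.11 in shNsd2 and 0.22 in MCTP from control, with overlapping values (exact permutation p = 0.3 for both), and by 0.06 and 0.04 after GC correction. Adjusted over the 12 tests, the lowest exact permutation p was 0.24. With 3 libraries a group no pair could have passed 0.05, so these tests cannot tell equal from unequal change.

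The partners of these genes were described from fixed lists, to be read beside all genes tested. Of those, 23.1% were called higher and 24.8% lower in shNsd2 against control, 18% and 17.2% in MCTP against control, and 20.6% and 22.6% in shNsd2 against MCTP. After GC correction these shares were 28% and 28.6%, 23.3% and 23.7%, and 28.5% and 29.1%. Of 20 histone chaperones and their partners, 8 were called higher and 3 lower in shNsd2 against control, with a median log2 fold change of 0.095, and 12 and 3 after GC correction, with a median of 0.136. Rbbp4, for the small histone-binding subunit of CAF-1, rose by 0.30 (SE 0.032, adjusted p = 0.000133), and Mcm2, a helicase subunit that holds parental H3, by 0.19 (adjusted p = 0.0065). Mms22l and Tonsl, whose proteins bind H3 and H4 at broken forks, rose by 0.22 and 0.19, and Ssrp1, of the FACT complex, by 0.20. The 3 lower genes, named after their values were seen, were Hat1 (-0.19), Nap1l1 (-0.19) and Hjurp (-0.14), and 1 gene was lower without shNsd2 replicate 1 or 2. Nasp, which stores H3 with H4, had a log2 fold change of 0.07 (adjusted p = 0.35), and of 0.14 and called after GC correction (adjusted p = 0.00841). In MCTP against control, 1 of the 20 was called higher, Ipo4 at 0.29 (also named after its value was seen), and 11 lower, with a median of -0.226. Npm1 (-0.46), Hat1 (-0.44), Anp32e (-0.42) and Supt16 (-0.36, listed as Supt16h) had the largest changes among those called, Nasp was at -0.25 (adjusted p = 0.0488), and Rbbp4 and Mcm2 were at 0.05 (adjusted p = 0.444) and -0.13 (adjusted p = 0.155). After GC correction 2 were called higher and 13 lower, with a median of -0.137. Npm1, Hat1, Anp32e and Supt16 were then at -0.28, -0.24, -0.29 and -0.27, and Nasp lost its call (-0.10, adjusted p = 0.0744). Mcm2 was then called lower (-0.22, adjusted p = 0.00184), and Rbbp4 was at 0.20 and not called (adjusted p = 0.0685). The number called lower was 5 without MCTP replicate 1, 6 without MCTP replicate 3 or control replicate 3, 4 without control replicate 1 or 2, and 7 with quantile normalization. Between the perturbed groups, 13 were called higher in shNsd2 and 0 lower (0 also at an unadjusted limma p under 0.05, but 1 lower without MCTP replicate 2), led by Npm1 at 0.66 (adjusted p = 0.00709).

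Of 8 genes of the HIRA and H3.3 pathway, none passed the threshold in shNsd2 against control (0 higher and 0 lower by limma, 1 and 1 at an unadjusted p under 0.05). Ubn1 and Cabin1, for subunits of the HIRA complex, had log2 fold changes of -0.04 and 0.01. Daxx and Atrx, which place H3.3 at telomeres and pericentromeres, had 0.07 and 0.05. After GC correction 2 genes of the list were called higher, and without control replicate 1 the number was 2. Without control replicate 3, 1 gene was called lower. In MCTP against control 2 genes were called lower, H3f3b at -0.26 (adjusted p = 0.0288) and H3f3a at -0.21 (adjusted p = 0.0451), which both encode H3.3. The pathway list held 0 called higher by limma, also at an unadjusted p under 0.05. Atrx was at -0.52 (adjusted p = 0.0711), Ubn1 at -0.12, Cabin1 at -0.01 and Daxx at 0.01, none past the threshold. At an unadjusted p under 0.05, 6 were lower. The number called lower by limma was 0 without MCTP replicate 1 or 3, without any single control library or with quantile normalization, and 6 without MCTP replicate 2. After GC correction 4 were called lower, and H3f3a was at -0.05 and not among them, while H3f3b (-0.11, adjusted p = 0.0443), Atrx (-0.30, adjusted p = 0.0343) and Ubn1 (-0.17, adjusted p = 0.008) were. Compared with MCTP, shNsd2 libraries had 3 called higher and 0 lower (0 at an unadjusted limma p under 0.05), Dek at 0.78, Atrx at 0.57 and Ubn2 at 0.44, with 1 called without MCTP replicate 1 or 3 or without any 1 of the shNsd2 libraries and 5 without MCTP replicate 2. After GC correction 5 were called higher and 0 lower, beside 28.5% and 29.1% of all genes.

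Of 15 H3 genes on the list, 8 were listed in the table and 5 passed the filter. Most H3 made in S phase comes from clustered genes whose transcripts lack a poly-A tail, and these libraries were made from poly-A RNA. Of the 5, 0 were called higher by limma (0 at an unadjusted p under 0.05) and 2 lower in shNsd2 against control, Hist1h3c at -0.45 (adjusted p = 4.65e-05) and Cenpa, for the centromeric H3 variant, at -0.14 (adjusted p = 0.0266). With 1 library left out (control replicate 2, shNsd2 replicate 2 or shNsd2 replicate 3), 1 of the 5 was called lower. Without the filter on low values, which adds genes to the test, 4 H3 genes were called lower. In MCTP against control 3 were called lower, Hist1h3c at -0.34 (adjusted p = 0.00281) beside H3f3a and H3f3b, and 1 higher, Hist2h3c1 at 0.25 (adjusted p = 0.00255). Without any single library other than MCTP replicate 2, 1 was called lower. After GC correction Cenpa lost its call with shNsd2 (-0.10, adjusted p = 0.0635) and Hist2h3c1 with MCTP (0.17, adjusted p = 0.0649), as H3f3a did with MCTP, which left 1 gene lower with shNsd2 and 2 lower with MCTP. Hist1h3c and Hist2h3c1 averaged 4.95 and 4.59 in control libraries, near the filter value. Between shNsd2 and MCTP 1 was called lower in shNsd2 and 0 higher by limma (0 at an unadjusted p under 0.05), and 0 were called lower without shNsd2 replicate 1 or 2. That gene was Hist2h3c1 (-0.21), and it was not called after GC correction (-0.16, adjusted p = 0.104).

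Of 18 partners and readers of H3K9 methylation, 17 were listed and tested. In shNsd2 against control 4 were called higher and 0 lower (0 also at an unadjusted limma p under 0.05), with a median of 0.109. The share called higher was close to the 23.1% of all genes. These were L3mbtl2 at 0.38 (adjusted p = 8.01e-05), Trim28, the corepressor that recruits SETDB1, at 0.31 (adjusted p = 0.000883), Morc2a at 0.27 (adjusted p = 0.000295) and Wiz, which binds the EHMT dimer, at 0.23 (adjusted p = 0.00182). The heterochromatin protein genes Cbx1, Cbx3 and Cbx5 stood at 0.12, -0.02 and 0.00, and Atf7ip, the partner of SETDB1, at -0.01, and none of them passed the threshold. After GC correction Cbx1 did (0.15, adjusted p = 0.00806). The number called higher was 9 after GC correction, with a median of 0.115 and beside 28% of all genes, and 7 without control replicate 1 or with median centring. In MCTP against control 5 were called lower and 1 higher, beside 17.2% and 18% of all genes, with a median of -0.18. After GC correction 7 were called lower and 1 higher, with a median of -0.0307. Cbx3 had values of 12.83, 12.66 and 12.48 in control and 12.05, 12.42 and 11.90 in MCTP libraries. All MCTP libraries were lower, replicate 2 least so, and the log2 fold change was -0.53 (SE 0.14, adjusted p = 0.0221). Cbx5 was at -0.47 (adjusted p = 0.0127), Mphosph8 at -0.41 (adjusted p = 0.0377), Cbx1 at -0.28 (adjusted p = 0.0367), Cdyl, named after its value was seen, at -0.26 (adjusted p = 0.0171), and L3mbtl2 at 0.30 (adjusted p = 0.0185). After GC correction Cbx3, Cbx5 and Cbx1 were at -0.33, -0.30 and -0.24, and Mphosph8 at -0.23, all called. On deposited values Trim28 was at 0.15 (adjusted p = 0.16), Wiz at -0.03 and Atf7ip at 0.03, and after GC correction Wiz was called lower (-0.13, adjusted p = 0.0144). The number called lower was 1 without MCTP replicate 1 or control replicate 2, 2 without MCTP replicate 3, control replicate 1 or control replicate 3, and 9 without MCTP replicate 2. In shNsd2 against MCTP 9 were called higher and 0 lower (0 at an unadjusted limma p under 0.05), among them Cbx3 at 0.51 (adjusted p = 0.0166) and Cbx5 at 0.47 (adjusted p = 0.0077), with 5 called without MCTP replicate 1 or shNsd2 replicate 3.

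Of 11 H3K9 demethylase genes, 10 were listed and tested. In shNsd2 against control 2 were called higher, Phf8 at 0.14 and Phf2 at 0.11. There 4 were called lower, Kdm4c at -0.31 (SE 0.053, adjusted p = 0.00145), Kdm3b at -0.16 (adjusted p = 0.0048), Kdm3a at -0.13 and Kdm1a at -0.10. Phf2 and Kdm1a were named after their values were seen. The number lower was 2 without control replicate 2 or 3, without shNsd2 replicate 1 or 2, or with median centring, and the number higher was 0 by limma without control replicate 2, where 2 genes passed an unadjusted p under 0.05 with all libraries, and 1 without control replicate 1 or shNsd2 replicate 1 or 2. The median was -0.0141. After GC correction Phf2 (0.05, adjusted p = 0.17) and Kdm3a (-0.08, adjusted p = 0.0563) lost their calls, and 2 genes were called higher and 3 lower. In MCTP against control Kdm4c at -0.29 (adjusted p = 0.0472) and Kdm3b at -0.14 (adjusted p = 0.0416) were called lower and 0 genes higher (0 also at an unadjusted limma p under 0.05). The number called lower was 0 without MCTP replicate 1 or 3, without any single control library or with median centring, and 6 without MCTP replicate 2. After GC correction 5 were called lower, beside 23.7% of all genes, with Kdm4c at -0.14 (adjusted p = 0.0362) and Kdm3b at -0.21. In shNsd2 against MCTP 3 were called higher and 0 lower (0 at an unadjusted limma p under 0.05), and 6 were called higher without MCTP replicate 2.

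**Figure D3:**
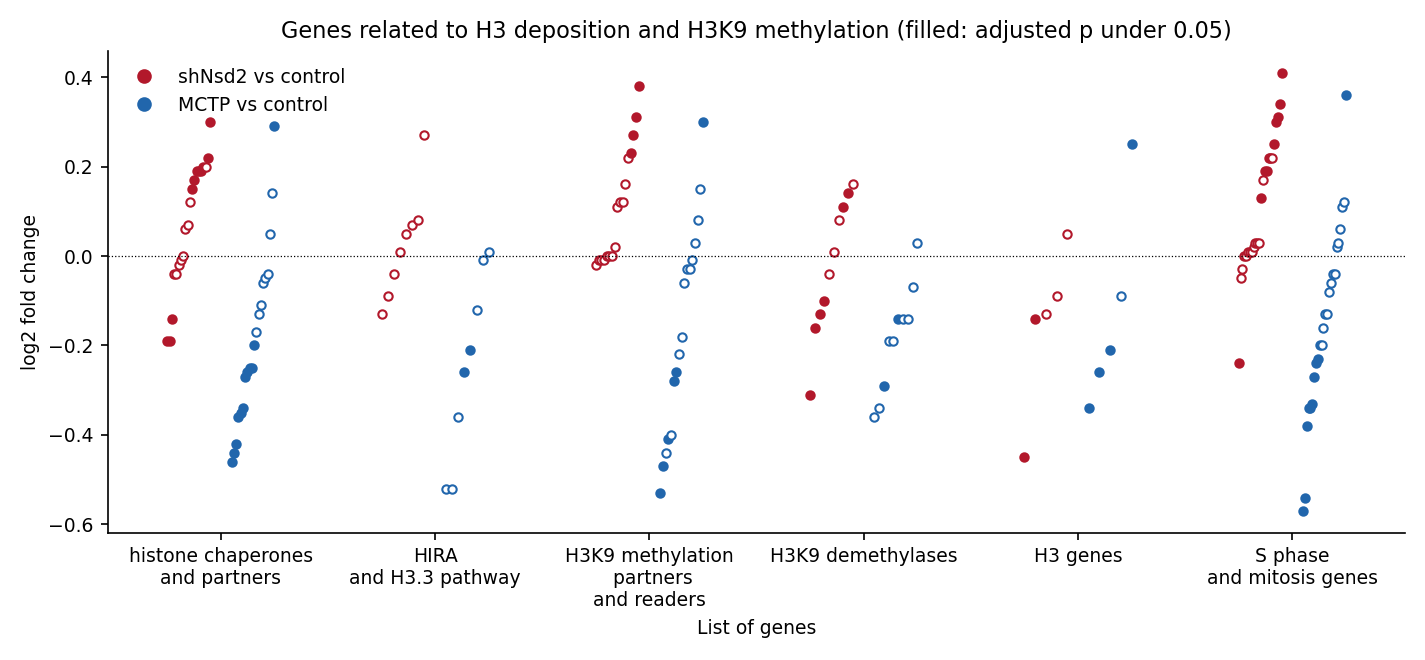
Log2 fold change (vertical axis) of each tested gene of 6 lists (horizontal axis), for shNsd2 against control in red and MCTP against control in blue, ordered within each list. Filled points have an adjusted p under 0.05. Among 20 chaperones and partners 8 are filled above and 3 below 0 for shNsd2, and 1 above and 11 below for MCTP.

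Several members are known to be made as cells enter S phase, and some genes of S phase and mitosis were called in the same comparisons. Of 24 such genes, 10 were called higher and 1 lower in shNsd2 against control, beside 23.1% and 24.8% of all genes, with a median of 0.0801. With MCTP against control 1 was called higher and 10 lower, beside 18% and 17.2%, with a median of -0.147. The remaining genes of the list were not called. After GC correction 13 were called higher and 1 lower with shNsd2 (median 0.0935), and 2 higher and 12 lower with MCTP (median -0.127). With shNsd2 the largest changes among called genes were Ccne1 at 0.41 (adjusted p = 7.05e-05), Mcm5 at 0.34 (adjusted p = 0.000434), Aurka at 0.31 (adjusted p = 0.000276) and Cdc6 at 0.30 (adjusted p = 0.000487), while the 1 lower gene was Ccna2 at -0.24, named after its value was seen. With MCTP they were Bub1 at -0.57 (adjusted p = 0.036), Mki67 at -0.54 (adjusted p = 0.0285), Top2a at -0.38 (adjusted p = 0.033) and Ccne1 at 0.36 (adjusted p = 0.00361), which after GC correction were at -0.36, -0.47, -0.22 and 0.30. The number called lower with MCTP was 5 without MCTP replicate 1 or control replicate 1 and 3 without control replicate 2, and the number higher was 3 without MCTP replicate 2. In shNsd2 against MCTP 16 of the 24 were called higher and 0 lower by limma (1 at an unadjusted p under 0.05, and 1 called without MCTP replicate 2 and 1 after GC correction), with Bub1 at 0.59 and Mki67 at 0.57. The log2 of the summed level of the 24 genes was 17.21, 17.18 and 17.09 in control, 17.27, 17.25 and 17.26 in shNsd2 and 17.02, 17.00 and 16.99 in MCTP libraries, and Rrm2 was the most abundant. The sums were ordered as shNsd2 above control above MCTP with no overlap. The part of cell cycle state in the member values was not tested.

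Some markers of other cell types also passed the threshold. Of 6 fibroblast and smooth muscle markers, 4 were listed, and Acta2 stood at 5.83, 6.03 and 5.98 in control, 6.04, 6.18 and 6.01 in shNsd2 and 8.91, 8.81 and 9.16 in MCTP libraries, a log2 fold change of 3.02 (SE 0.096, adjusted p = 7.18e-06) with MCTP. The other listed markers did not follow it, as Col1a1 was called lower with MCTP (-0.33, adjusted p = 0.0105) and with shNsd2 (-0.30, adjusted p = 0.00111), and Col3a1 was lower with shNsd2 (-0.28, adjusted p = 0.0028) and not called with MCTP (-0.12, adjusted p = 0.209). Pdgfra was called higher with shNsd2 (0.13) and not called with MCTP (0.05). The summed level of this list, led by Col3a1, had a log2 of 11.16, 10.96 and 11.10 in control, 10.81, 10.81 and 10.80 in shNsd2 and 11.27, 11.20 and 11.20 in MCTP libraries, and Col1a2 and Myh11 were not listed. Of 4 basal markers 3 were listed, led by Krt15, at -1.20 with shNsd2 (adjusted p = 5.65e-07), while Krt14 rose by 0.78 with shNsd2 and 1.19 with MCTP. Trp63 was called lower with shNsd2 (-0.09, adjusted p = 0.0464), but not after GC correction (-0.03, adjusted p = 0.517). With MCTP, Krt15 (0.07, adjusted p = 0.52) and Trp63 (0.03, adjusted p = 0.586) were not called, and Trp63 was called higher after GC correction (0.16, adjusted p = 0.0127). The log2 of the basal sum was 12.64, 12.68 and 12.68 in control, 11.83, 11.74 and 11.70 in shNsd2 and 12.94, 12.68 and 12.94 in MCTP libraries, and Krt5 was not listed. Of 5 leukocyte markers only Cd68 was listed, at 6.53 on average in control, 6.76 in shNsd2 and 7.26 in MCTP libraries. Cd68 was called higher with shNsd2 (0.23, adjusted p = 0.00227) and with MCTP (0.73, adjusted p = 0.000688). After GC correction it was still called, at 0.20 and 0.67. Of 3 endothelial markers only Cdh5 was listed, at 3.50 in control, below the filter value. The 4 mesenchymal markers, all listed and led by Vim, summed to 17.62, 17.69 and 17.69 in control, 17.47, 17.49 and 17.39 in shNsd2 and 17.93, 17.77 and 17.95 in MCTP libraries. These sums mostly follow Vim, which was called higher with MCTP (0.32, adjusted p = 0.0266), where Zeb1 was called lower (-0.23, adjusted p = 0.0407) and Cdh2 and Fn1 were not called. With shNsd2 all 4 were called lower, Fn1 at -0.42, Zeb1 at -0.28, Vim at -0.16 and Cdh2 at -0.10. The part of these changes in the member values was not tested.

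Promoter windows of 300 bases at RefSeq starts (GRCm38.p6) were read for all 10 members, in 12 windows, because members that move together in dividing cells are often described as E2F targets. Searched on both strands were the E2F letters TTTCCCGC, TTTCGCGC, TTTGCCGC and TTTGGCGC and the CHR letters TTTGAA. Of 32851 windows in the table, 2.26% held at least 1 of the E2F words and 17.9% held the CHR word. Among the members, 1 window, of Suv39h1, held an E2F word and 2 windows, of Asf1b and Suv39h2, held the CHR word. A match is a description of these letters, and the windows without one say nothing of the factors. The 3 windows are printed 5′ to 3′ on the strand of the gene with the matched letters in capitals, as these are the called genes whose windows carried a word. They lie at chr8:83955444-83955743 on the plus strand for Asf1b, and on the minus strand at chrX:8074312-8074611 for Suv39h1 and chr2:3474937-3475236 for Suv39h2.
Asf1b: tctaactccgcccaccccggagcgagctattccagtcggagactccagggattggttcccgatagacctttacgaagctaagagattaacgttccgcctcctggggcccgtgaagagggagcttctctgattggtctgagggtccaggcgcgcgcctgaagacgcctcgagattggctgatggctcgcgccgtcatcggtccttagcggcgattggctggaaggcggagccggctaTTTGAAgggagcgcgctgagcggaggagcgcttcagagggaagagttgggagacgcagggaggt
Suv39h1: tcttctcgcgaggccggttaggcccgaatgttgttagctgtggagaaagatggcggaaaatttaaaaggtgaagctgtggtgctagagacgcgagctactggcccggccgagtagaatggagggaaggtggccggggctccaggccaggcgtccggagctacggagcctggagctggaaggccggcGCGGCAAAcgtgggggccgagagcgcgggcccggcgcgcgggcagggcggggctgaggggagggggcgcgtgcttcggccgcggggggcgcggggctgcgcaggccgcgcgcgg
Suv39h2: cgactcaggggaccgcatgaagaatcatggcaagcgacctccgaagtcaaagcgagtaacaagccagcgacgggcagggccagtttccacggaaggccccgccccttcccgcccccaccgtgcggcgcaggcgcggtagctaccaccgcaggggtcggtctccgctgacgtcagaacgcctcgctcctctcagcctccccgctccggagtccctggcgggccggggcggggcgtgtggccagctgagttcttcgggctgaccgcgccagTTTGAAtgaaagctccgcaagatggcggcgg
The E2F word of Suv39h1 is TTTGCCGC on the opposite strand, read as GCGGCAAA in the line above, in 1 of 2 windows of that gene. This window lies inside the gene, downstream of the start at 8074760 given above, and the window that covers that start, chrX:8074711-8075010, held no word. The window of Hira ends at 18876799, before the start at 18877037 given above. The windows of Chaf1a, Chaf1b, Ehmt2 and the other members held none of these words.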

How the data were processed

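RNA-seq libraries of poly-A RNA from NPK cells were analysed, 3 each from control, shNsd2 and MCTP cells, grouped by title. The authors deposited 1 table of log2 values per gene and library, already scaled between libraries. The study's methods describe normalized, variance-stabilized counts for its tumour cells, which no source used here ties to this table. The submitters' processing notes name bcl2fastq 1.8.4, TopHat, Cufflinks, DESeq, DESeq2 and mm9, without saying which steps made this table. The table has 12 columns of values, of which 3 match no sample and were not used here. Depth is unknown. The test planned for log2 values was used in place of that for counts.

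A gene was tested in a comparison when 3 or more of its 6 libraries exceeded 3.78, which is where the lowest 10% of used values have their median. Each comparison was fitted alone in limma 3.58.1 (R 4.3.3), with moderated variances that follow the mean, and p-values were adjusted by Benjamini-Hochberg across every tested gene at 0.05. Differences within 3 paralog pairs and between the CAF-1 subunits were compared by exact two-sided permutation, adjusted over 12 tests. Replicates of a group shared no value at any gene, so none was a repeated deposit. Identifiers were matched without version to GENCODE M21 (GRCm38), where 12513 of 12842 (97.4%) were found. Positions, GC content and transcript length come from that annotation, which is a later build than mm9. GC correction subtracted from each library a lowess curve (span 0.3) of the deviation from the gene mean on GC content, so a true change tied to GC content is lost too. The fits were tested on simulated data. Python 3.11.15 with matplotlib 3.10.9 drew the figures.

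Alternatives tried were GC correction, quantile normalization, median centring, a fit without the trend, one fit of all 9 libraries, no filter on low values, a replicate block, and omission of each library singly. Chosen after seeing the data were GC correction on the mean over a gene's transcripts, length correction, and leaving out together the library of each group whose deviation had the lowest correlation with GC content.

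All 10 members were named. From each related list the counts past the threshold were given, and, except where the text says that a gene was named after its value was seen, at most the 4 called genes with the largest absolute change were named beside Nasp, Mcm2, Rbbp4, Ubn1, Cabin1, Daxx, Atrx, Atf7ip, Trim28, Wiz, Cbx1, Cbx3 and Cbx5. The members and lists were chosen with earlier results of these data known, so lists were described by counts and medians only. Older symbols in the table were matched to current ones.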

Additional observations from a re-analysis of the deposited data

How the results depend on the processing

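Across the alternatives, 441 of the log2 fold changes of the members and Nsd2 kept direction and side of the threshold, 53 lost a call, 22 gained one and 12 turned sign. Of the differences within the 3 paralog pairs and the CAF-1 subunits, 123 kept their sign and 9 turned. Causes of these shifts were not tested. Fits that left libraries out also had fewer of them, and the part of this was not tested either. Every adjusted p is from limma.

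With MCTP against control 4305 genes were called, 2029 to 7372 with single libraries left out and 7555 with 1 library of each group left out. Between shNsd2 and MCTP 5276 were called, 3361 to 7756 with single libraries left out. Members called lower with MCTP numbered 3, but 6 after GC correction, 1 after length correction, 1 with median centring and 0 to 4 with single libraries left out. Members called higher with MCTP numbered 0 (1 at an unadjusted p under 0.05), but 1 with all 9 libraries in one fit, 1 with quantile normalization, 1 with 1 library of each group left out and 0 to 1 with single libraries left out. Members higher in shNsd2 than in MCTP numbered 9, and 5 to 9 with single libraries left out.

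For MCTP against control, Chaf1a turned from -0.01 to 0.0103 (quantile normalization), 0.0319 (median centring), 0.0608 (length correction) and 0.0476 (1 library of each group left out), and ran from -0.0476 to 0.0401 with single libraries left out. Asf1a turned to 0.00195 (GC correction) and Asf1b to -0.00225 (GC content averaged over transcripts). In shNsd2 against MCTP, Ehmt2 turned from 0.02 to -0.00148 (quantile normalization), -0.00559 (median centring) and -0.0167 (1 library of each group left out), and ran from -0.0566 to 0.0698 with single libraries left out. The change in Asf1b minus Asf1a turned to -0.00104 for MCTP against control (GC correction). For shNsd2 against MCTP it turned to 0.222 (GC correction) and 0.119 (averaged GC content) and ran from -0.179 to 0.0793 with single libraries left out. There Suv39h1 minus Suv39h2 turned to 0.0205 (GC correction) and 0.0683 (averaged GC content), and Chaf1a minus Chaf1b to -0.0459 (length correction).

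Whether replicate numbers pair libraries across groups cannot be told from these values. Deviations of libraries with the same number had a mean r across genes of -0.25, -0.184 and -0.36 in shNsd2 against control, MCTP against control and shNsd2 against MCTP, beside 0.155, 0.142 and 0.226 for unlike numbers. But deviations within a group sum to 0, and the library that stood apart was replicate 1 in control, 2 in MCTP and 3 in shNsd2. These r therefore cannot show whether libraries were prepared in numbered sets. With the replicate block, 4515, 3399 and 3794 genes were called, 6 members were called higher with shNsd2 and 1 lower with MCTP, and 7 were higher in shNsd2 than in MCTP.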
